A study of Mus musculus with 96 samples.

Results

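The 9 genes described here are members of the Notch pathway and markers of arterial endothelium, followed across single cells from 3 blood-forming sites of the mouse embryo. They were chosen by name, with earlier results of these data known. The set holds the ligand genes Dll4 and Jag1 and the receptor genes Notch1 and Notch4. It also holds the target genes Hes1, Hey1 and Hey2, and the arterial genes Efnb2 and Gja5. These 9 of 19836 genes in the count table were all among the 15239 genes with at least 30 reads over all cells. The study sorted 96 cells from C57BL/6 embryos singly into wells and sequenced the RNA of each.

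Of these cells, 48 came from the aorta-gonad-mesonephros region (AGM) and 16 from the yolk sac, both at embryonic day E11.5. Both sets were labelled pre-haematopoietic stem cells (pre-HSCs) and sorted as Ter119-CD11b-CD144+c-kit+EPCR+, where CD144 is the product of Cdh5 and EPCR that of Procr. Liver gave 16 cells labelled haematopoietic stem cells (HSCs) at E12.5, sorted as Ter119-Sca-1+c-kit+EPCR+, and 16 at E14.5, sorted as Ter119-Sca-1+c-kit+CD48-CD150+. Tissue, age and gate change together between the AGM and the liver, so their parts cannot be told apart. Age and gate also change together between the liver groups, with the same limit. Since no animal or litter is named in the labels, a group counts as 1 sample and no test was made. Intervals are exact 95% intervals that cover counting error only and leave out the spread between cells. Reads without molecular identifiers are not independent molecules, so the intervals of pooled CPM and of ratios are too narrow even for counting error.

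Notch receptors sit in the cell membrane and are switched on by Delta-like and Jagged ligands on a neighbouring cell. Cleavage by gamma-secretase then frees the intracellular part of the receptor, which joins the DNA-binding protein RBPJ and turns on genes of the Hes and Hey families. In the embryo this signal is known for setting arterial identity in endothelium and for its part in forming the first blood stem cells from the wall of the dorsal aorta.

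Some wells stood apart from the rest. Cells held 250235 to 1926882 reads, and the median number of genes detected was 5522.5 in the AGM, 5349.5 in the yolk sac, 4036 in liver at E12.5 and 4839 in liver at E14.5. In 8 wells over 9500 genes were detected (AGM cells 1, 5, 8 and 36, yolk sac cells 1, 2 and 3, and E12.5 liver cell 1), against at most 8948 in the other 88. In 4 wells the 12 haematopoietic marker genes summed to under 500 CPM (reads of a gene scaled to a library of 1000000), against an AGM median of 2250 CPM. These were AGM cell 3 at 6.97 CPM, AGM cell 36 at 152.6 CPM, AGM cell 9 at 370.9 CPM and E12.5 liver cell 8 at 4 CPM. The liver cell held 1011 detected genes and no read of any of the 9. AGM cell 3 had 0 reads of Kit, Ptprc, Runx1 and Spn, although its label names c-kit as a sorted marker. Its 12 endothelial marker genes summed to 13567 CPM, against an AGM median of 1113 CPM. Values are given with all wells and, where they differ, without these wells, a choice made after the data were seen. No doublet caller was run, as 1 cell was sorted per well, and the part of these wells in the results was not tested.

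AGM cells held a read of at least 1 of the 9 genes more often than cells of the other groups. The median AGM cell had a read of 2 of the 9 genes, against 1.5 for yolk sac and 0 for both liver groups. No member was found in 1 of 48 AGM cells, 3 of the 16 yolk sac cells, 9 of 16 E12.5 liver cells and 14 of 16 E14.5 liver cells. Hes1 led in the AGM, where 46 of 48 cells had a read, while Hey2 and Gja5 had reads in 4 AGM cells each. In the heat map of all cells the Hes1 row is nearly filled over the AGM, and the E14.5 liver columns are nearly empty.

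**Figure D1:**
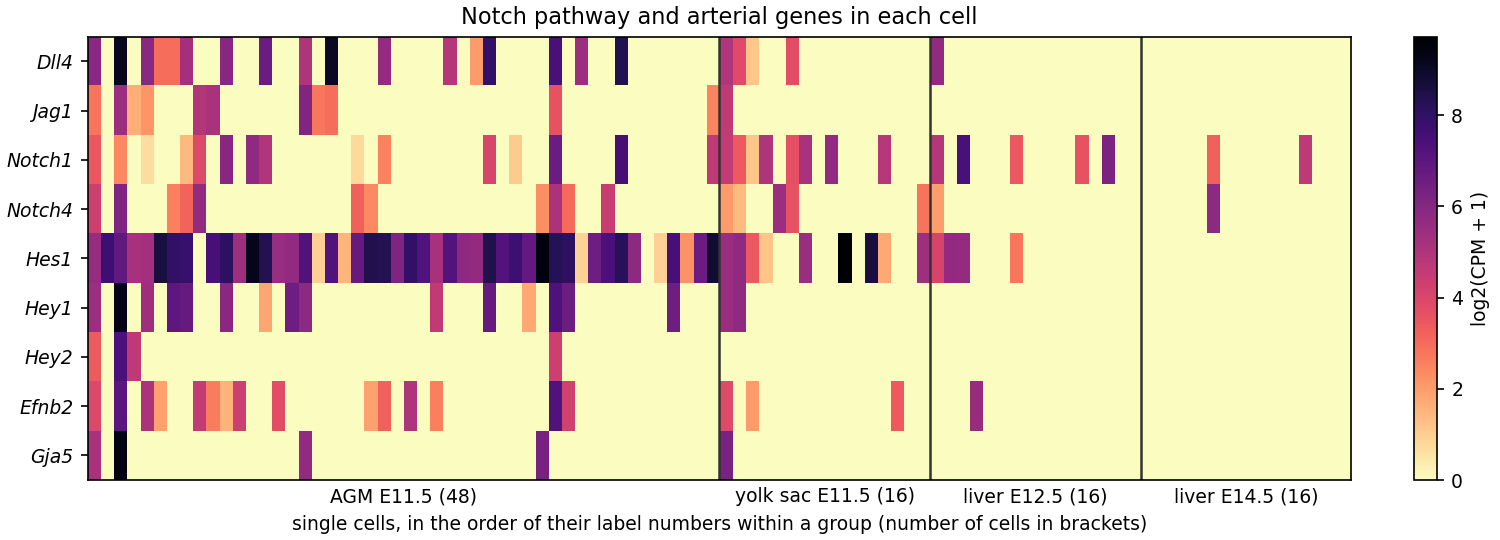
Level of each of the 9 genes, as log2(CPM + 1), in each of the 96 cells (columns, grouped by tissue and age). Hes1 fills 46 of 48 AGM columns, and 14 of 16 E14.5 liver columns hold no read of any of the genes.

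The ligand genes were found mainly in AGM cells. Dll4, the Delta-like ligand of arterial endothelium, lies on chromosome 2 (119325784 to 119335962, plus strand, GRCm38 as for all gene positions here). It had reads in 17 of 48 AGM cells (35.4%, interval 22.2 to 50.5). The lowest and the median AGM cell were at 0 CPM and the highest, cell 3, at 555.2 CPM. Yolk sac cells had Dll4 reads in 4 of 16, with a highest cell of 29.6 CPM, and 3 of those 4 were wells with over 9500 genes. E12.5 liver had it in 1 of 16 cells, at 52.0 CPM, in such a well too. E14.5 liver had it in 0 of 16 cells (interval 0 to 20.6% of cells with a read, which does not limit cells that express the gene). The groups overlapped at 0, and 9 AGM cells lay above the highest cell of the other groups.

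Summed over the cells of a group, Dll4 stood at 50.1 CPM in the AGM (48.3 to 51.9), 4.44 CPM in the yolk sac (3.61 to 5.40), 2.73 CPM in E12.5 liver (2.04 to 3.58) and 0 in E14.5 liver. The pooled AGM level was 11.3-fold that of the yolk sac (9.24 to 13.9) and 18.4-fold that of E12.5 liver (14 to 24.6). For E14.5 liver, with 0 reads, it was 343.8-fold a floor of 3 reads per group, the floor used for each such fold below. Such a fold covers counting only and is no lower bound, since 1 cell can bring more reads than the floor. The lone E12.5 liver cell held 52 Dll4 reads. Without both kinds of well that stood apart, the pooled Dll4 level was 37.6 CPM in 42 AGM cells, 1.31 CPM in 13 yolk sac cells and 0 in both liver groups. So the order AGM, yolk sac, liver held with and without those wells, while the yolk sac value then came from 1 cell.

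Jag1, a Jagged-type ligand of Notch receptors, lies on chromosome 2 (137081456 to 137116644, minus strand). Jag1 reads were in 11 of 48 AGM cells (22.9%), 1 of the 16 yolk sac cells and 0 of 16 cells in each liver group. The highest AGM cell was cell 17 at 66.8 CPM, and the lone yolk sac cell, cell 1, was at 23.4 CPM. The median cell was at 0 CPM in all 4 groups, so the groups overlapped, and 4 AGM cells lay above the yolk sac cell. Pooled Jag1 was 4.08 CPM in the AGM and 2.02 CPM in the yolk sac. The AGM level was 25.9-fold the floor of E12.5 liver and 28-fold that of E14.5 liver. Single cells set the pooled values: without AGM cell 17 the AGM stood at 2.20 CPM, and without yolk sac cell 1 the yolk sac stood at 0.

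The receptor genes did not have their highest pooled level in the AGM. Notch1, the receptor required for the first definitive blood stem cells, lies on chromosome 2 (26457903 to 26516663, minus strand). It had reads in 15 of 48 AGM cells (31.2%, 18.7 to 46.3), 8 of the 16 yolk sac cells (24.7 to 75.3%), 5 of 16 E12.5 liver cells (31.2%, 11 to 58.7) and 2 of 16 E14.5 liver cells (1.55 to 38.3%). The median cell was at 0.622 CPM in the yolk sac and at 0 CPM in the other groups. The highest cells were AGM cell 41 at 183.9 CPM, yolk sac cell 9 at 51.3 CPM, E12.5 liver cell 3 at 171.4 CPM and E14.5 liver cell 13 at 24.6 CPM. The intervals of all 4 shares overlapped, and 1 AGM cell lay above the highest cell outside the AGM.

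Pooled Notch1 was 10.5 CPM in the AGM, 12.8 CPM in the yolk sac, 25.1 CPM in E12.5 liver and 1.89 CPM in E14.5 liver. E12.5 liver was 2.41-fold above the AGM (2.13 to 2.71), a lead that 1 cell carried: without E12.5 liver cell 3 its level was 9.20 CPM and the log2 ratio to the AGM, after adding 1 CPM to both, was -0.17 in place of 1.19. Without E12.5 liver cell 14 that ratio was 0.94. Without AGM cell 41 the AGM stood at 5.54 CPM, and the log2 ratio of yolk sac to AGM was 1.08 in place of 0.27. From E12.5 to E14.5 liver the level was 13.3-fold lower (9.57 to 18.9), and without E14.5 liver cell 13 the E14.5 level was 0.414 CPM.

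Notch4, a receptor known mainly from endothelium, lies on chromosome 17 (34564268 to 34588503, plus strand). It had reads in 11 of 48 AGM cells (22.9%), 5 of the 16 yolk sac cells (31.2%) and 1 of 16 cells in each liver group (6.25%, 0.158 to 30.2). The highest cells were AGM cell 3 at 71.5 CPM, yolk sac cell 5 at 43.1 CPM, E12.5 liver cell 1 at 3 CPM and E14.5 liver cell 6 at 56.1 CPM. The median was 0 CPM in every group, and the groups overlapped throughout. Pooled Notch4 was 3.95 CPM in the AGM, 4.66 CPM in the yolk sac, 0.157 CPM in E12.5 liver from 3 reads, and 2.67 CPM in E14.5 liver from 55 reads of 1 cell. The ratio of AGM to E12.5 liver was 25.1 with a counting interval of 8.48 to 122.5. Without the wells that stood apart the AGM level was 1.17 CPM and the yolk sac level 5.48 CPM, a log2 ratio of 1.58 in place of 0.19. Without yolk sac cell 5 the yolk sac level was 1.83 CPM.

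Hes1 was the member that differed most widely between groups. It encodes a basic helix-loop-helix repressor, a classic target of Notch that other signals also control, and lies on chromosome 16 (30064384 to 30067796, plus strand). It had reads in 46 of 48 AGM cells (95.8%, 85.7 to 99.5), 9 of the 16 yolk sac cells (56.2%, 29.9 to 80.2), 4 of 16 E12.5 liver cells (7.27 to 52.4%) and 0 of 16 E14.5 liver cells (0 to 20.6). In the AGM the lowest cell was at 0 CPM, the median at 143.7 CPM and the highest, cell 35, at 694.9 CPM. In the yolk sac the median was 1.82 CPM and the highest, cell 10, was 839.2 CPM, above every AGM cell. In E12.5 liver the median was 0 and the highest 49.7 CPM, in cell 2. The shares stepped down from AGM to yolk sac to E12.5 liver to E14.5 liver; the intervals of the first pair did not overlap, while those of the later neighbours did.

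Pooled Hes1 was 164.1 CPM in the AGM (160.9 to 167.3), 72.7 CPM in the yolk sac (69.2 to 76.3), 11 CPM in E12.5 liver (9.53 to 12.6) and 0 in E14.5 liver. The AGM level was 2.26-fold that of the yolk sac (2.14 to 2.38) and 15-fold that of E12.5 liver (13 to 17.2). It was 1126-fold the floor of E14.5 liver. In the yolk sac, cell 10 held 60.6% of the Hes1 reads, and without it the pooled level was 30.2 CPM. Leaving out both kinds of well that stood apart gave 169.2, 83, 10.8 and 0 CPM in the same order, so the order of the groups held without them. After each cell was thinned to 690000 reads, Hes1 was found in 41 of 43 AGM, 9 of the 16 yolk sac, 4 of 14 E12.5 liver and 0 of 14 E14.5 liver cells. With 1 CPM added, the log2 ratio of yolk sac to AGM was -1.16. It was under 2-fold in size after thinning, at -0.84, and by the mean of the cells' CPM, at -0.89.

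**Figure D2:**
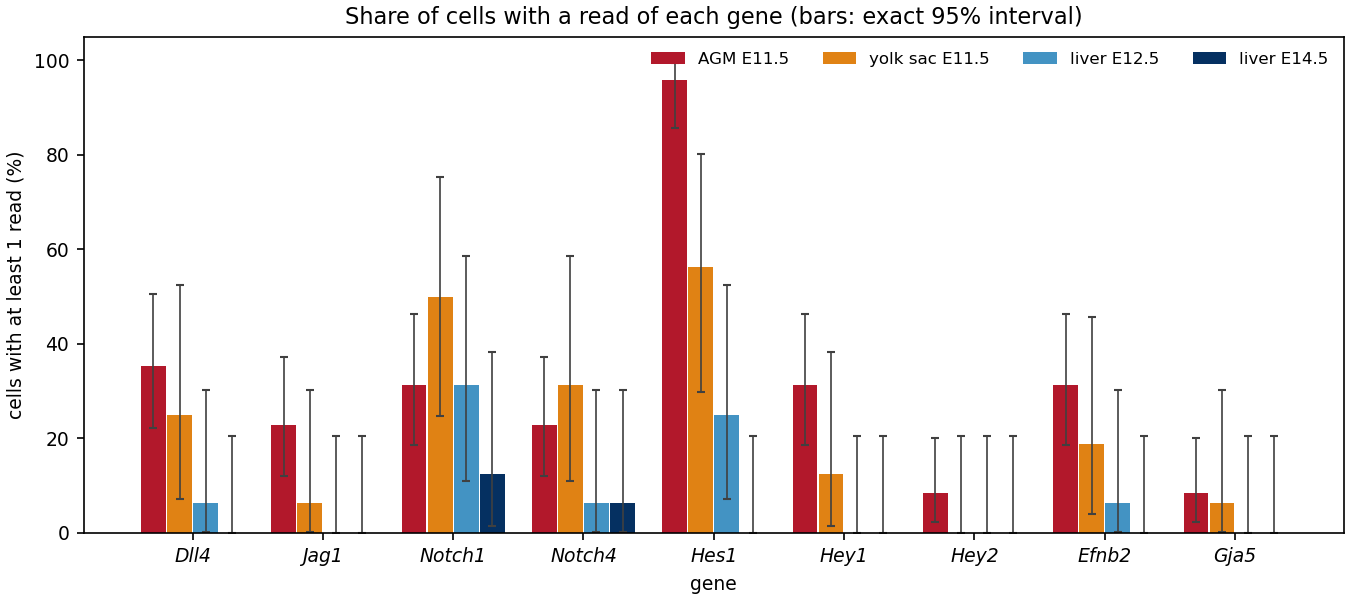
Share of cells with at least 1 read of each gene in each group (bars) with its exact 95% interval (lines), as percent of 48 AGM or 16 other cells. Hes1 stands at 95.8% in the AGM and 0% in E14.5 liver, while Notch1 is highest in the yolk sac, with reads in 8 of 16 cells.

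Hey1 and Hey2, repressors of the same family that act downstream of Notch in arteries and heart, had no reads in liver cells. Hey1 lies on chromosome 3 (8663359 to 8667256, minus strand) and had reads in 15 of 48 AGM cells (31.2%, 18.7 to 46.3) and 2 of the 16 yolk sac cells (1.55 to 38.3%). Both yolk sac cells were wells with over 9500 genes, and without such wells 0 of 13 yolk sac cells had a read. The highest cell was AGM cell 3 at 614.5 CPM, against 52.1 CPM in yolk sac cell 2, and 10 AGM cells lay above that value. Pooled Hey1 was 35 CPM in the AGM and 6.68 CPM in the yolk sac, a 5.24-fold difference (4.44 to 6.23). The AGM level was 222.3-fold the floor of E12.5 liver and 240.2-fold that of E14.5 liver. Without the wells that stood apart, 10 of 42 AGM cells had Hey1 reads at a pooled 17.9 CPM, and no cell of the other groups had one.

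Hey2 lies on chromosome 10 (30832359 to 30842801, minus strand) and was the rarest target. It had reads in 4 of 48 AGM cells (8.33%, 2.32 to 20) but 0 of 16 cells of each other group. The 4 cells were cell 3 at 164.7 CPM, cell 4 at 24.3 CPM, cell 36 at 18.8 CPM and cell 1 at 9.31 CPM. Cell 3 alone held 78.75% of the Hey2 reads, so the pooled AGM level of 3.98 CPM was 0.862 CPM without it and the log2 ratio to each other group was -0.90 in place of -2.32. All 4 of these cells also had Jag1 and Hes1 reads.

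The start of Hey2 is shown because, among the 7 members searched, its promoter was where letters known to bind RBPJ were found. RefSeq promoter windows of 300 bases (250 before to 50 after the start, GRCm38.p6) were matched for 7 of the 9 members, all but Hes1 and Hey1, and searched on both strands for TGGGAA and its longer form GTGGGAA, which contains it. The stretch below runs over chr10:30842774-30843033 on the minus strand, from 250 bases before the annotated start to 10 bases after it. Capitals mark GTGGGAA and its reverse complement TTCCCAC.
Hey2 promoter: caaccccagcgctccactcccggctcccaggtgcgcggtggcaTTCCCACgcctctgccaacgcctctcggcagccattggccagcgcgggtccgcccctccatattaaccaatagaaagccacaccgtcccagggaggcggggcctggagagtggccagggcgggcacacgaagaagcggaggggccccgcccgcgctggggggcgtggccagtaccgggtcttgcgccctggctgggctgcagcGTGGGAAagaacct
The upstream match lies on the opposite strand, and the other begins 4 bases before the RefSeq start and runs into the transcript. The gene position given above comes from GENCODE, which places the start further upstream, at 30842801. By that position the second match lies inside the gene. Of 32851 promoters of this length, 25.6% held TGGGAA on either strand, 6.38% held GTGGGAA, and 0.256%, or 84, held GTGGGAA at least 2 times. The other 6 matched members, Dll4, Jag1, Notch1, Notch4, Efnb2 and Gja5, held neither form in this window. A match describes letters and shows no binding.

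The arterial genes fell into a commoner and a rarer member. Efnb2, the ephrin ligand that marks arteries, lies on chromosome 8 (8617434 to 8661242, minus strand) and had reads in 15 of 48 AGM cells (31.2%), 3 of the 16 yolk sac cells (18.75%), 1 of 16 E12.5 liver cells and 0 of 16 E14.5 liver cells. The highest AGM cells were cell 36 at 147.1 CPM and cell 3 at 129.0 CPM, the yolk sac reached 13.5 CPM in cell 1, and the E12.5 liver cell, cell 4, was at 46.2 CPM. The median was 0 CPM in every group, and the 2 highest AGM cells were the only ones above the liver cell. Pooled Efnb2 was 8.51 CPM in the AGM, 1.75 CPM in the yolk sac, 3.99 CPM in E12.5 liver and 0 CPM at E14.5. The AGM level was 4.87-fold that of the yolk sac (3.51 to 6.93) and 58.4-fold the floor of E14.5 liver. Without the wells that stood apart the AGM level was 2.74 CPM, below the 4.27 CPM of E12.5 liver. Without E12.5 liver cell 4 the E12.5 level was 0.

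Gja5, the gap junction protein connexin 40 of arterial endothelium, lies on chromosome 3 (96904693 to 97077416, plus strand). Gja5 reads were in 4 of 48 AGM cells (8.33%), 1 of the 16 yolk sac cells (6.25%) and 0 of 16 cells of each liver group. The AGM cells were cell 3 at 664.2 CPM, cell 35 at 78.1 CPM, cell 17 at 52.0 CPM and cell 1 at 33.9 CPM, and the yolk sac cell was cell 1 at 74.4 CPM. Pooled Gja5 was 16.8 CPM in the AGM and 6.41 CPM in the yolk sac. AGM cell 3 held 75.3% of the AGM reads, and without it the AGM level was 4.23 CPM and the log2 ratio of yolk sac to AGM was 0.50 in place of -1.26. Without yolk sac cell 1 the yolk sac had 0 reads. The direction of the Gja5 difference at E11.5 thus turned on single cells.

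Only a comparison per length sets one gene against another. Per kilobase of annotated exon, the AGM order was Hes1 at 80.6 CPM per kb, Dll4 at 13, Hey1 at 10.7, Gja5 at 2.92, Efnb2 at 1.24, Hey2 at 0.867, Notch1 at 0.734, Jag1 at 0.700 and Notch4 at 0.490. In E12.5 liver the order on the same scale was Hes1 at 5.39, Notch1 at 1.77, Dll4 at 0.709, Efnb2 at 0.582 and Notch4 at 0.0195, with the others at 0. Hes1, Dll4 and Hey1 led in the AGM. The places of rarer genes rested on single cells: without AGM cell 3, Hey2 was at 0.188 and Gja5 at 0.736 CPM per kb, and without E12.5 liver cell 3, Notch1 was at 0.646.

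Read together, most members were lower outside the AGM. On the log2 scale with 1 CPM added, 6 of 9 members were lower by at least 2-fold in the yolk sac than in the AGM, where 21% of all 15239 genes were lower in this way. In E12.5 liver 7 of 9 were lower against 26% of all genes, and in E14.5 liver 8 of 9 were lower against 25.3%. These 3 comparisons share the AGM cells. Higher by at least 2-fold were 0 members in the yolk sac (8.61% of all genes), Notch1 alone in E12.5 liver (15.6%) and 0 at E14.5 (15.3%). The median log2 ratio of the 9 was -1.26, -2.35 and -3.25 in the 3 comparisons, beside -0.20, -0.20 and -0.23 for all genes. Between the livers, E14.5 was lower than E12.5 for 4 of 9 members (Dll4, Notch1, Hes1 and Efnb2, 18.2% of all genes) and higher for Notch4 (18.7%), and the other 4 had no reads in either. Of those 4, Dll4 and Efnb2 each rested on 1 cell at E12.5, and the Notch4 difference on 1 cell at E14.5.

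Fewer members passed a rule that 1 cell cannot meet alone, a share of cells lower by at least 25 percentage points. In the yolk sac 1 member passed it, Hes1 (1.48% of all genes). In E12.5 liver Dll4, Hes1, Hey1 and Efnb2 passed it (14.3% of all genes), and the same 4 did in E14.5 liver (11.3%). From E12.5 to E14.5 liver 1 member passed it, Hes1 (3.33%). In the other direction 0 members passed in the yolk sac (3.14% of all genes did), E12.5 liver (0.787%), E14.5 liver (1.49%) and E14.5 against E12.5 liver (7.37%). Without both kinds of well that stood apart, 2 members passed it in each liver comparison with the AGM, Dll4 and Hes1, beside 11.49% of all genes at E12.5 and 7.20% at E14.5. With fewer cells of a kind in a group and less RNA per cell, pooled reads cannot tell the 2 apart.

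The wells that stood apart moved some ratios and not others. Leaving out the 4 wells low in haematopoietic markers, 3 of 9 members were lower by 2-fold in the yolk sac, Dll4, Hes1 and Hey1, beside 19.5% of all genes, and the median log2 ratio of the 9 was -0.67 against -0.16 for all genes. Leaving out both kinds of well, 6 of 9 were lower beside 24.6% of all genes, with a median of -1.36 against -0.20. Dll4 and Hey1 were lower than in the AGM by 2-fold in all 3 other groups under each of these choices, as the plot of ratios with wells left out shows. Hes1 was too, apart from a yolk sac ratio of -0.99 without the wells of over 9500 genes.

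**Figure D3:**
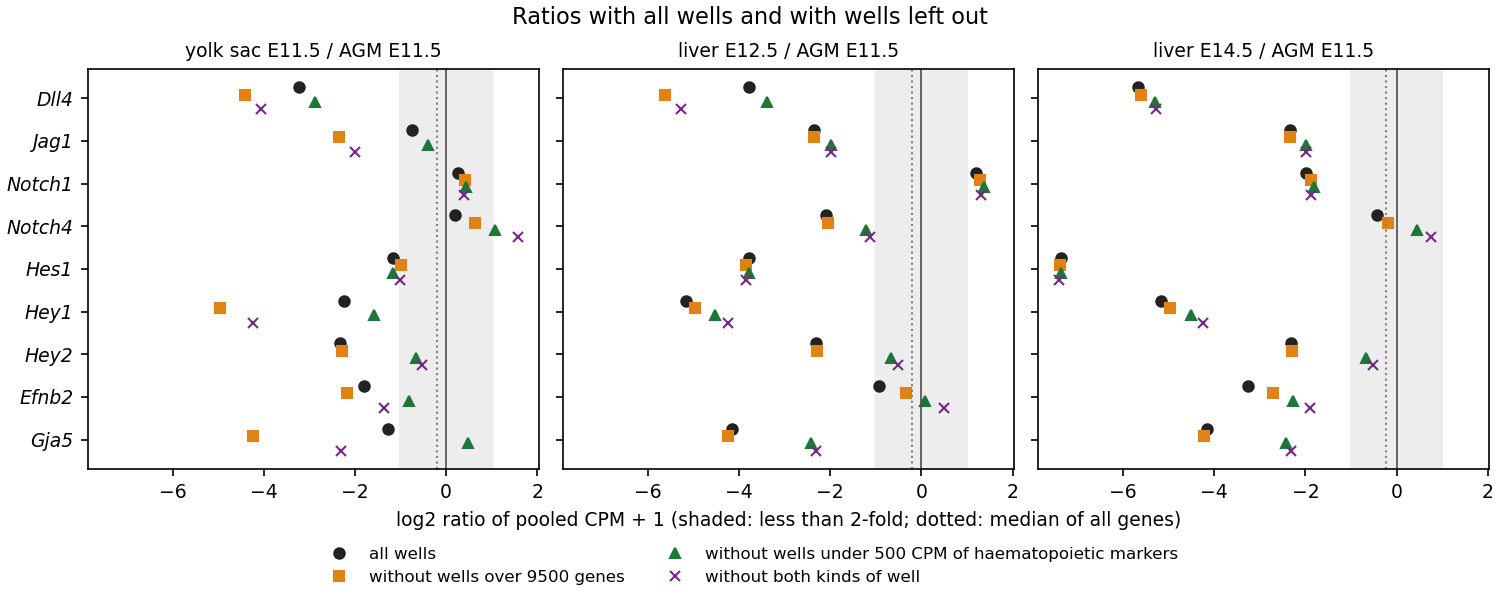
Log2 ratio of pooled CPM + 1 of each gene to the AGM in the yolk sac and both livers, with all wells and with wells that stood apart left out (shaded, under 2-fold; dotted, median of all genes). Dll4 and Hey1 lie left of the shaded band for every symbol, and Gja5 in the yolk sac ranges from -4.23 to 0.47.

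Several members often occurred in the same AGM cell. At least 4 of the 9 had reads in 13 of 48 AGM cells (27.1%, 15.3 to 41.8), 3 of the 16 yolk sac cells (18.75%), 1 of 16 E12.5 liver cells (6.25%) and 0 of 16 E14.5 liver cells. All 8 wells with over 9500 genes were among these 17. Without them the count was 9 of 44 in the AGM (20.5%, 9.80 to 35.3). It was 0 of 13 in the yolk sac (0 to 24.7%), 0 of 15 in E12.5 liver (0 to 21.8%) and 0 of 16 in E14.5 liver (0 to 20.6%). Without both kinds of well, 7 of 42 AGM cells had at least 4. Cells with 4 or more of the genes and an ordinary number of detected genes were thus seen in the AGM group. With overlapping intervals and fewer cells elsewhere, these counts do not show that the other groups lack such cells.

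The number of the 9 genes per cell moved with the number of genes detected. Over the 48 AGM cells Pearson's r was 0.73, and 0.49 over the 44 without the gene-rich wells, a description over cells that share depth and groups. Against the reads per cell r was 0.08. AGM cell 3 had all 9 genes at 7028 detected genes.

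**Figure D4:**
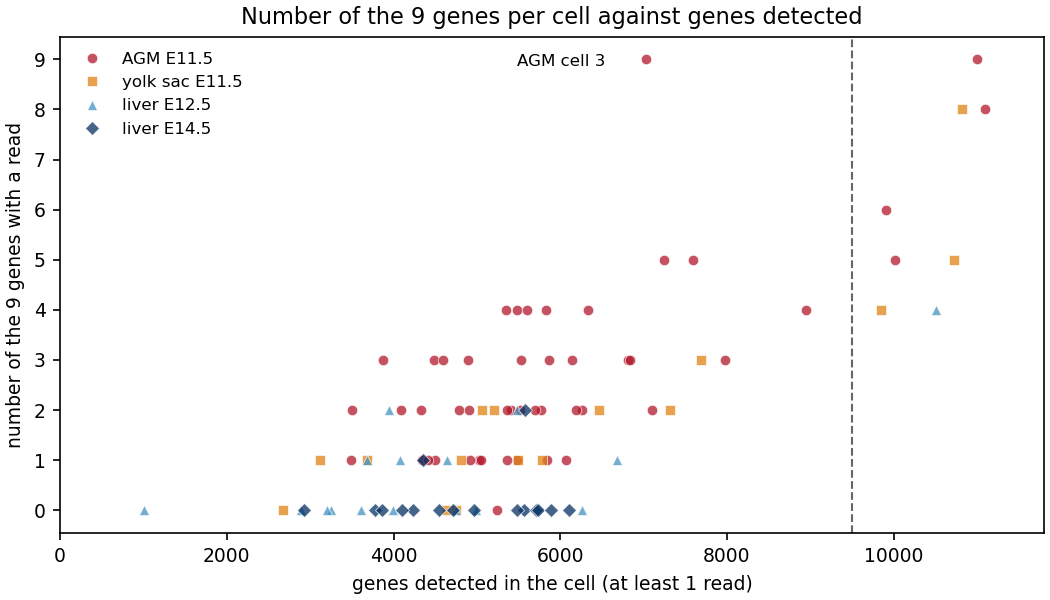
Number of the 9 genes with a read in each cell against the number of genes detected, by group; the dashed line marks 9500 genes. Every well right of the line has at least 4 of the genes. Left of it, cells with at least 4 are all from the AGM, the group with most cells.

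Ligand and receptor reads met in the same cell in 13 of 48 AGM cells (27.1%), 4 of the 16 yolk sac cells, 1 of 16 E12.5 liver cells and 0 of 16 E14.5 liver cells. Without the gene-rich wells the counts were 9 of 44, 1 of 13, 0 of 15 and 0 of 16. A ligand without Notch1 or Notch4 was found in 9 AGM cells and in 0 cells of the other groups. A receptor without Dll4 or Jag1 was found in 7 AGM, 6 yolk sac, 4 E12.5 liver and 2 E14.5 liver cells. Each yolk sac and liver cell with a Dll4 or Jag1 read thus also held a Notch1 or Notch4 read. Other ligands were not counted here. The liver cells with most reads of the ligand gene Jag2, E12.5 cell 13 and E14.5 cell 1, had no Notch1 or Notch4 read.

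Hes1 was found widely without the rest. In 18 of 48 AGM cells a target gene had reads while neither ligand and neither receptor did, and in 11 of these 48 Hes1 was the lone member. Every AGM cell with Dll4 reads (17 of 17) and with Hey1 reads (15 of 15) had Hes1 reads, and Hes1 was in 46 of 48 cells in all. Dll4 met Notch1 in 10 AGM cells and Hey1 in 10. Over 48 AGM cells Spearman's rho of the levels was 0.54 for Dll4 with Notch1 and 0.49 for Dll4 with Hey1. Over the 44 without gene-rich wells these were 0.42 and 0.36. The arterial pair Efnb2 and Gja5 met in 2 AGM cells and 1 yolk sac cell, or in 1 AGM cell and no other without gene-rich wells.

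**Figure D5:**
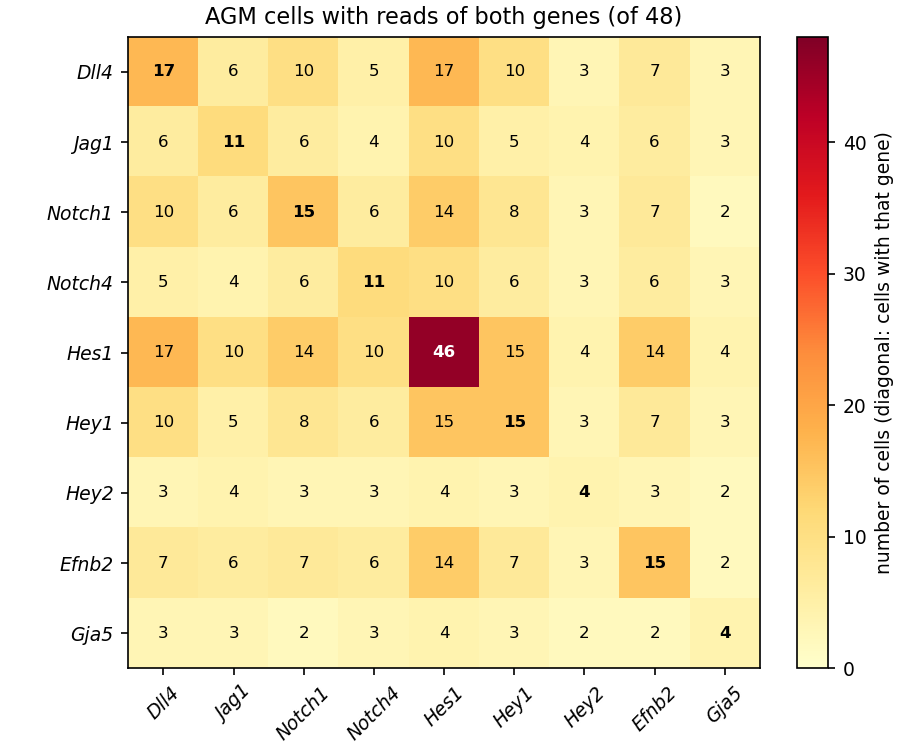
Number of the 48 AGM cells with reads of both genes of a pair (diagonal, cells with reads of that gene). Dll4 and Hes1 share 17 cells, Dll4 shares 10 with Notch1 and 10 with Hey1, and Efnb2 and Gja5 share 2.

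By the 2-fold rule, listed endothelial markers were lower outside the AGM more often than all genes, while listed haematopoietic markers were not. Cdh5, the vascular cadherin of the gate, had reads in 45 of 48 AGM, 7 of the 16 yolk sac, 3 of 16 E12.5 liver and 1 of 16 E14.5 liver cells. All 48 AGM cells but 8 of the 16 yolk sac cells had reads of Cdh5 or Procr, although both groups were sorted on both proteins. In the yolk sac, Hes1 reads were in 5 cells with and 4 without a read of Cdh5 or Procr. By 2-fold, 21%, 26% and 25.3% of all genes were lower than in the AGM in yolk sac, E12.5 and E14.5 liver. Of the 12 endothelial markers, 7, 8 and 8 were lower. Summed per cell, they ranged from 55.0 to 13567 CPM in the AGM, 2.72 to 1573 in the yolk sac, 0 to 2461 in E12.5 liver, where Kdr was at 0, and 0 to 1356 in E14.5 liver, where Cldn5 was at 0. At E14.5, 1 endothelial marker was higher (15.3% of all genes). Of the 12 haematopoietic markers, 2, 1 and 1 were lower. Higher were 1, 3 and 1 of them, beside 8.61%, 15.6% and 15.3% of all genes. Haematopoietic sums had medians of 2250, 2881, 3102 and 2581 CPM in the AGM, yolk sac, E12.5 and E14.5 liver. The part of these markers in the members' differences was not tested.

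Markers of other cell types were low but for single cells. The 4 measured hepatocyte genes had a median sum of 0 in the AGM and in both livers, with Afp, Ttr, Apoa1 and Apoa2 all at 0 in E14.5 liver, and reached 780.3 CPM in yolk sac cell 3. The 8 mesenchymal genes had median sums of 0 to 0.608 CPM and reached 809.8 CPM in 1 AGM cell. The 6 macrophage genes had medians of 2.13, 0, 23.2 and 66.8 CPM in the AGM, yolk sac, E12.5 and E14.5 liver, with a highest cell of 21592 CPM in E12.5 liver. The 8 erythroid genes had medians of 14.7, 28.7, 357.7 and 237.5 CPM and reached 213479 CPM in 1 E14.5 liver cell.

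Other arterial genes differed in the same direction as the members, and a single cell held much of their signal. Of 16 measured genes of this list, 12, 12 and 13 were lower than in the AGM by 2-fold in yolk sac, E12.5 and E14.5 liver. Of all genes, 21%, 26% and 25.3% were lower in this way. The list had median log2 ratios of -2.07, -3.38 and -3.58, beside -0.20, -0.20 and -0.23 for all genes. Venous genes went the same way. Of 7 measured, 4, 5 and 4 were lower by 2-fold and 0 were higher (8.61%, 15.6% and 15.3% of all genes). Their median log2 ratios were -1.19, -1.85 and -1.25, so a lower level outside the AGM was not particular to arterial genes. Gja4, another arterial connexin, was at 86.2 CPM in the AGM, 11.2 CPM in the yolk sac and 0 in both livers, and AGM cell 3 held 81.35% of its AGM reads. Tmem100, an endothelial target of BMP signalling, was at 40.8 CPM in the AGM, with 80.95% of the reads in cell 3. Nrp1, a co-receptor for VEGF, was at 47, 14.7, 0 and 0.0486 CPM in the AGM, yolk sac, E12.5 and E14.5 liver, and at 23.6 CPM in the AGM without cell 3 and 9.47 CPM in the yolk sac without cell 1. Sox17, a regulator of arterial fate, was at 33.1, 3.50, 32.2 and 0 CPM. The E12.5 value came from 3 cells and was 9.30 CPM without cell 5, and the yolk sac value was 1.67 CPM without cell 1. Of the AGM cells with Sox17 reads, 8 of 12 also had Dll4 reads. Mecom, also a stem cell regulator, was at 47.9, 35.2, 71.9 and 65.5 CPM, and without the top cell of each liver group at 46 and 41.9 CPM there.

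The rest of the Notch machinery was measured from lists of its parts. Of 9 genes that cut or modify receptors on their way to the surface, 1, 3 and 4 were lower by 2-fold in the yolk sac, E12.5 and E14.5 liver than in the AGM, and none was higher. Their median log2 ratios of -0.13, -0.28 and -0.43 stood beside -0.20, -0.20 and -0.23 for all genes. Psenen, a gamma-secretase subunit, had reads in every cell of all 4 groups. Of 12 modulators, 4, 2 and 6 were lower and 1, 1 and 1 higher. Beside both lists, 21%, 26% and 25.3% of all genes were lower and 8.61%, 15.6% and 15.3% higher. Mfng, a fringe glycosyltransferase that tunes receptors to Delta-like ligands, was at 266.2, 266.7, 165.9 and 265.8 CPM and had reads in 47 of 48 AGM cells.

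Nuclear partners were also measured in all groups. Of 10 genes, 4, 3 and 3 were lower and 0, 1 and 0 higher than in the AGM. Of all genes, 21%, 26% and 25.3% were lower and 8.61%, 15.6% and 15.3% higher. Rbpj itself was at 15 CPM in the AGM, 10.9 CPM in the yolk sac, 26.7 CPM in E12.5 liver and 6.36 CPM in E14.5 liver, with reads in 29 of 48, 14 of 16, 6 of 16 and 5 of 16 cells. Without the top cell of each liver group Rbpj was at 15.7 and 3.86 CPM there. Of 11 other Notch targets, 2, 3 and 3 were lower and 0, 0 and 1 higher, beside the same shares of all genes. Their median log2 ratios were -0.49, -0.28 and -0.44, against -0.20, -0.20 and -0.23 for all genes. Nrarp, a feedback inhibitor of Notch, was at 39.7, 5.92, 12.1 and 10.1 CPM, lower than in the AGM by 2-fold in all 3 other groups. Cdkn1a, a cell cycle inhibitor, was at 45.6, 76.8, 12.1 and 0 CPM. In E12.5 liver 2 of 16 cells had Cdkn1a reads, and without cell 14 its level there was 0.171 CPM.

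The other receptors and ligands were low, with 1 exception. Notch2 was at 4, 1.03, 0.210 and 0.680 CPM and Notch3 at 4.78, 2.38, 5.41 and 0 CPM in the AGM, yolk sac, E12.5 and E14.5 liver. In the yolk sac and livers at most 2 cells of a group held reads of each gene. Without its top cell, Notch3 was at 1.78, 0.333 and 2.21 CPM in the AGM, yolk sac and E12.5 liver, and Notch2 at 0.245, 0.0554 and 0.103 CPM in the yolk sac, E12.5 and E14.5 liver. Counting all 4 receptors, 29 of 48 AGM, 10 of the 16 yolk sac, 6 of 16 E12.5 liver and 3 of 16 E14.5 liver cells had a read of at least 1. Jag2, another Jagged-type ligand, was at 8.43, 7.58, 8.87 and 6.80 CPM, with reads in 17 of 48, 4 of 16, 2 of 16 and 3 of 16 cells. Without the cell with most Jag2 reads, the yolk sac and the livers stood at 3.57, 0.637 and 0.261 CPM. Dlk1, a non-canonical ligand from an imprinted locus, ran against Dll4 and Jag1: it was at 23.9 CPM in the AGM, 351.8 CPM in the yolk sac, 327.7 CPM in E12.5 liver and 138.4 CPM in E14.5 liver. The yolk sac level of Dlk1 was 14.7-fold that of the AGM (13.9 to 15.6).

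The genes whose levels most resembled the members' were found by Spearman's rho with the mean log2(CPM + 1) of the 9. Over the 48 AGM cells and 9293 genes, the 5 highest were Gdpd1 (0.61), Mmp2 (0.60), Tmem44 (0.59), Mfsd6 (0.59) and Dnal1 (0.59). The mean of the 9 had a rho of 0.47 with the number of genes detected. Over the 44 AGM cells without gene-rich wells, Mmp2 and Mfsd6 stayed among the 5 highest, with Ramp2, Il11ra1 and Fam69a. Over all 96 cells the 5 highest were Cldn5 (0.68), Tspan18 (0.66), Adgrf5 (0.66), Ramp2 (0.65) and Mogat2 (0.64). Of these, Cldn5, a tight junction protein of endothelium, was at 178.4, 47.3, 0.105 and 0 CPM, the same order of groups as Dll4.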

How the data were processed

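RNA was sequenced from 96 single cells, and the authors deposited a table of unnormalised counts of reads for each gene. Per the submitters' processing notes, FastQC, Trimmomatic 0.36, STAR and HTSeq were used with the genome build mm10. The annotation and the strand setting are not given in the sources used here, so reads of overlapping genes may be shared. The labels name no molecular identifiers, so counts are reads. All columns matched a sample by name. Summing lines that share a symbol took 19949 rows to 19836 genes, and all 96 cells held at least 1000 genes.

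For each group the reads of its cells were added up and expressed as CPM. Poisson intervals of pooled CPM, conditional intervals of ratios and Clopper-Pearson intervals of shares are exact 95% intervals. A fold against 0 reads is set against a floor of 3 reads per group and leaves out the spread between cells. Genes were called at a log2 ratio of at least 1 in size with 1 CPM added, which shrinks the ratios of low genes, or at 25 percentage points of cells. Cells of at least 690000 reads were also thinned to that number, which left out 5 AGM cells and 2 in each liver group. The calling steps were tested on simulated data. Gene positions and exon lengths came from GENCODE for GRCm38, the same build as mm10. Python 3.11.15, numpy 2.4.6, pandas 2.3.3 and scipy 1.17.1 were used.

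All members are named. From each other list, counts and up to 4 genes with large ratios are named, plus genes used for co-detection, and the 5 genes most like the members. Psenen, Mfng, Jag2, Cdkn1a and Mecom were named after their values were seen. Members and lists were chosen with earlier results of these data known. Dtx1, Depp1, Alb and Serpina1a were not analysed here, and Dtx4, Heyl, Fgb, Hnf4a, Adgre1 and Cx3cr1 had under 30 reads.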

Additional observations from a re-analysis of the deposited data

How the results depend on the processing

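No paired analysis was possible because the label numbers name cells and no animal or litter, and no result comes from a test. The other settings tried were a minimum of 2000 genes per cell, thinning, omitting the deepest cell per group, detection at 10 CPM or 5 reads, 10 CPM added, the mean of the cells' CPM, median-of-ratios scaling, no minimum on reads and a 4-fold rule. Leaving out gene-rich wells, wells low in haematopoietic markers or both kinds was chosen after the data were seen.

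Counts of members lower by 2-fold became 3, 4, 4 and 2 with 10 CPM added, in the order yolk sac, E12.5 liver and E14.5 liver against AGM and E14.5 against E12.5 liver, beside 3.12%, 7.41%, 6.74% and 7.45% of all genes. In the yolk sac the count became 3 by the 4-fold rule (5.5% of all genes) and 3 without the wells low in haematopoietic markers (19.5%). When single cells were omitted in turn, these counts ranged from 4 to 7, 6 to 8, 7 to 9 and 3 to 4. Counts lower by 25 points in the yolk sac became 2 without the deepest cells (1.95%) and 2 without gene-rich wells (3.88%). In E12.5 liver they became 2 at 10 CPM (1910 of 15239 genes) and 2 without both kinds of well (11.49%), and in E14.5 liver 2 without both kinds (7.20%). Between the livers the count of 1 became 0 without the deepest cells (2.74%), without gene-rich wells (1.48%), without both kinds (2.02%) and at 10 CPM (2.24%). The share with at least 4 members became 0 in the yolk sac and 0 in E12.5 liver without gene-rich wells or both kinds, and 0 in E12.5 liver at 10 CPM or 5 reads. The Gja5 ratio of yolk sac to AGM turned from -1.26 to 0.47 without the wells low in haematopoietic markers. The cause of these shifts was not tested. A gene with no read in 16 cells may still be expressed there below detection.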
